A study of Mus musculus with 41 samples.

Results

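The comparison here sets early against late epithelial mammary tumors of mice that received a high fat diet in adulthood only. Members were taken by their sample labels, which give a variable morphology (read as epithelial) and a switch from low to high fat diet, and 6 of the 41 tumors of the series met them. Early onset was labelled for 3 of these tumors (early 1, 2 and 3) and late onset for the other 3 (late 1, 2 and 3), with 52 weeks as the limit between them. All 6 grew from mammary duct fragments of Trp53-null BALB/c females, which were placed in the cleared fat pads of wild-type female BALB/c mice at 3 weeks of age. How much of each tumor's stroma came from the wild-type host and how much from the donor is not stated. The fragments came from 4 donor mice, and the donor behind each tumor is not stated. The low fat diet (LFD) was fed until 10 weeks of age and the high fat diet (HFD) thereafter, a regimen named LFD-HFD. The other epithelial tumors of the series, 23 in number, came from LFD, HFD and HFD-LFD mice and were used for comparison and for the estimate of the spread. The 6 tumors carry different mouse numbers, and nothing states that they share a mouse. Among the other 23, 2 pairs carry 1 mouse number each, a pair of early HFD-LFD tumors and a pair of LFD tumors of which 1 was early and 1 late. The fit treated the tumors of these pairs as independent.

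The p53 protein halts cell division and can trigger cell death after DNA damage, and tumors without it lose both responses. Mammary tumors of this kind differ widely between animals in lineage, from luminal cells, which line the duct, to basal and myoepithelial cells, which contract and rest on the basement membrane. Around the cancer cells lies a stroma of fibroblasts, which lay down collagens and fibronectin, of macrophages, lymphocytes and vessels, and, in the mammary gland, of adipocytes. RNA of a whole tumor holds all of these, so that fewer cells of a type and less RNA per cell cannot be told apart. The question put by the comparison is which genes differ between tumors that arose early and late under an adult high fat diet.

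Each tumor's RNA was hybridised on an Agilent 2-color array with Universal Mouse Reference RNA, which is pooled from cultured mouse cell lines. Values are log2 of the tumor channel over the reference channel, so a value of 0 means equal signal in both, and a difference of 1 is a 2-fold change. The tumor channel was well above background for 66.5% to 88.9% of spots on the 6 arrays, and early tumor 2 had the lowest and late tumor 2 the highest share. The number of arrays limits the precision. Early tumors 1 and 3 lay on a slide with late HFD tumors, while early tumor 2 lay on a slide with all 3 late LFD-HFD tumors. Within a slide, therefore, early and late LFD-HFD tumors can be compared only as early tumor 2 against the 3 late tumors, and the median of that difference is given for each gene list as the value within the shared slide. The early tumors resembled each other more than the late ones did. Across genes, which are not independent replicates, the ratios of early pairs correlated at an r of 0.877 to 0.921, those of late pairs at 0.753 to 0.815, and those between early and late tumors at 0.769 to 0.895. The median standard deviation of a gene was 0.29 among early and 0.44 among late tumors.

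Values below follow the order early 1, 2 and 3 and late 1, 2 and 3. These numbers follow no measurement and pair no tumors. Trp53, the gene that the donor tissue lacks, was well above background on all 6 arrays at its single probe (chr11:69404204-69404263, mm9). Its log2 ratios were -0.28, -0.88 and -0.30 in early and 0.45, -0.12 and 0.71 in late tumors. Where the probe lies relative to the deleted part is not stated in the sources used here, so these values check no label. The label of epithelial morphology was set against defining markers. Keratin genes Krt8 and Krt18, of simple epithelium, had ratios of 1.87 to 3.53 and of 1.68 to 3.80, and Epcam, an epithelial adhesion gene, had ratios of 1.87 to 2.45. Krt5, a keratin of basal epithelium, lay below 0 in every tumor, at -2.86 to -0.27, and Krt14, its partner, lay on both sides of 0. Of 6 mesenchymal genes, Vim, Zeb1 and Zeb2 lay below 0 in every tumor. Twist1 had ratios of 1.30, 0.79 and 0.67 in early and -0.33, 0.33 and -0.17 in late tumors, and Snai2 had ratios of -1.02, -1.89 and -1.44 in early and 0.78, -2.00 and 2.22 in late tumors. Pdgfrb, whose values are given below, was above 0 in every early and below 0 in every late tumor. Twist1, Snai2 and Pdgfrb were therefore each above 0 in some tumors. Krt18 had the same mean in early and late tumors, with a difference of 0.00 ± 0.61 (SE, n = 3 and 3). Each SE here and below comes from the limma fit, whose spread is pooled over all 29 epithelial tumors. It is therefore not the spread of these 6 tumors alone.

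No single gene passed the test between early and late tumors. Of 21407 genes tested by limma, 0 were called higher (0%) and 0 lower (0%) at a Benjamini-Hochberg adjusted p under 0.10, and the smallest adjusted p was 0.296. An unadjusted p under 0.05 was reached by 693 genes or 3.24%, of which 340 were higher in early tumors and 353 lower. The gene with the smallest adjusted p, named after its value was seen, was 4833422C13Rik, with ratios of 1.96, 2.75 and 1.92 in early and 0.56, 1.28 and 0.53 in late tumors and a difference of 1.42 ± 0.26 (SE). For 2134 of 21019 genes with a value in all 6 tumors (10.2%) the 3 early and 3 late values did not overlap, with early tumors higher for 1236 (5.88%) and lower for 898 (4.27%). An exact permutation test of 3 tumors against 3 cannot go below a two-sided p of 0.1 for any single gene. The results that follow are thus descriptions of genes and gene lists, none of which passed the test, and each list is read beside these shares of all genes. The median difference over all genes was 0.00, and 50.5% of genes lay above 0.

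Fibroblast and extracellular matrix genes showed the largest median difference of the 25 gene lists. Of 24 measured genes, 22 were higher in early than in late tumors and 2 lower, with a median difference of 0.93. The early and late tumors did not overlap for 8 of the 23 genes with all values, all of them higher in early tumors, beside 5.88% of all genes. An unadjusted limma p under 0.05 was reached by 11 of the 24, all higher in early tumors, beside 3.24% of all genes in both directions. The genes were measured in the same tumors and are not independent of each other. The list's mean ratio was -0.12, -1.27 and -0.48 in early tumors and -1.54, -1.50 and -1.85 in late tumors, so the groups did not overlap, and early tumor 2 came close to the late tumors.

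Several of these genes encode fibrillar collagens or proteins that join them. The RefSeq promoters (GRCm38.p6) of 3 genes with separate groups are shown because their differences lay in the same direction. The 250 bases before the start are printed 5′ to 3′ on the gene's own strand, with capitals for CCAAT, or ATTGG where it lies on the other strand, a box that many promoters share.
Col5a1, chr2:27886175-27886424, plus strand: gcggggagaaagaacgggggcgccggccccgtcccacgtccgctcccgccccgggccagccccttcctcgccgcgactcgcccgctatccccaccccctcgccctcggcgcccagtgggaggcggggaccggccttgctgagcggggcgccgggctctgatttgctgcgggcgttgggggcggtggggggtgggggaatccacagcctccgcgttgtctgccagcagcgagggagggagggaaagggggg
Col6a3, chr1:90843972-90844221, minus strand: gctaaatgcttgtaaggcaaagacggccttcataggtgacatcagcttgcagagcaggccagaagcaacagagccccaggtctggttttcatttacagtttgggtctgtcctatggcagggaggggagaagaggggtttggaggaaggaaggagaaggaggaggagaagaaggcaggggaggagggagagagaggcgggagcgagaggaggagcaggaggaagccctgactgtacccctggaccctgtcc
Col1a2, chr6:4505368-4505617, plus strand: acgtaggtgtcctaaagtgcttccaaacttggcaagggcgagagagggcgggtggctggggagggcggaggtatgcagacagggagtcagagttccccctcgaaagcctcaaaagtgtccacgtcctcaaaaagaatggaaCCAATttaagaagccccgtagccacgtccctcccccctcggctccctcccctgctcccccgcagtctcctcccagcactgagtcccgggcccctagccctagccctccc
The Col1a2 window held CCAAT once, and the Col5a1 and Col6a3 windows did not hold it. Of 32851 promoter windows of the same length, 33.8% held it on either strand. Only 14 of the 24 measured genes of the list have a window in the table, too few for a share over the list.

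Col1a1 and Col1a2, the chains of type I collagen, had log2 ratios below 0 in every tumor, with the early tumors nearer to 0. Col1a1 had ratios of -1.64, -3.44 and -2.13 in early and -4.18, -3.59 and -5.24 in late tumors, a difference of 1.93 ± 0.70 (SE). Col1a2 had ratios of -2.04, -2.86 and -2.08 in early and -3.58, -3.50 and -4.67 in late tumors, a difference of 1.59 ± 0.57. For both genes early tumor 2 was the lowest early tumor, only slightly above the highest late tumor for Col1a1. Col5a1, whose product helps to start collagen fibrils, had ratios of -1.43, -2.68 and -2.15 in early and -3.98, -3.57 and -4.57 in late tumors, a difference of 1.95 ± 0.54. Col6a3, a chain of the beaded type VI collagen, had ratios of -0.80, -2.26 and -1.44 in early and -3.28, -2.55 and -3.60 in late tumors, a difference of 1.64 ± 0.43. Early and late tumors were separate for both, with gaps smaller than the range within either group. Fn1, which encodes fibronectin, differed the most among the non-overlapping genes of the list, with ratios of 1.67, 0.45 and 1.66 in early and -1.96, -0.24 and -2.23 in late tumors and a difference of 2.74 ± 0.80, or 6.66-fold. Pdgfrb, the PDGF receptor of pericytes and fibroblasts, had ratios of 1.12, 0.02 and 0.28 in early and -1.13, -0.44 and -0.98 in late tumors, a difference of 1.32 ± 0.34. Col5a2 and Lox, the enzyme that crosslinks collagen, were separate as well, with differences of 1.13 ± 0.39 and 1.09 ± 0.95. Mmp13, a collagenase, had the largest difference of the list at 3.25 ± 1.47, but late tumor 2 at 0.89 lay above early tumor 2 at 0.05.

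**Figure D1:**
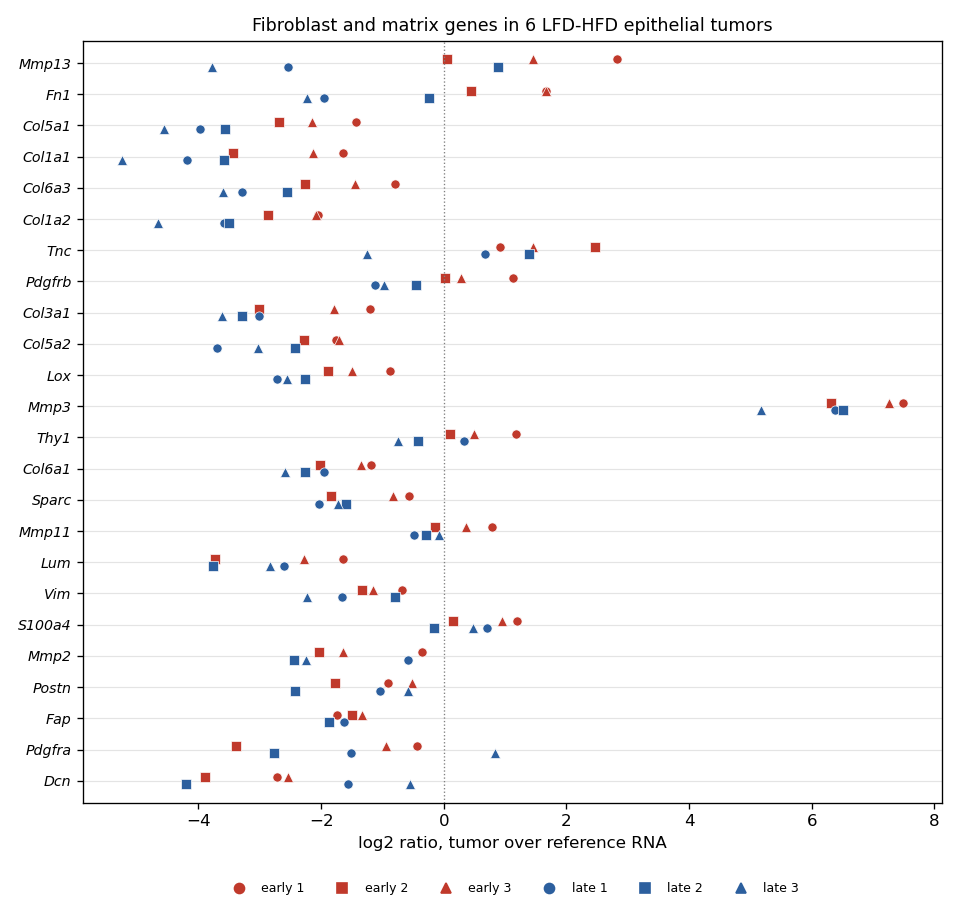
Log2 ratios (tumor over reference RNA, x axis) of the 24 fibroblast and matrix genes (y axis, ordered by difference) in 3 early (red) and 3 late (blue) LFD-HFD epithelial tumors, with a shape per tumor. Among genes with all values, the red points lie to the right of the blue ones for Fn1, Col5a1, Col1a1, Col6a3, Col1a2, Pdgfrb, Col5a2 and Lox only. The groups overlap for the others, from Mmp13 at the top to Pdgfra and Dcn at the bottom.

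Other fibroblast markers of the list did not separate the groups. Dcn, which encodes the proteoglycan decorin, had ratios of -2.71, -3.89 and -2.53 in early and -1.56, -4.21 and -0.54 in late tumors, a difference of -0.94 ± 0.83. Pdgfra, a receptor of resident fibroblasts, differed by -0.44 ± 0.94, and Postn, Fap, S100a4 and Vim by 0.23 to 0.51. Within the shared slide, early tumor 2 was above the mean of the 3 late tumors for 17 of the 24 genes, with a median difference of 0.29, against 0.93 over all 6 tumors. Leaving out any 1 of the 6 tumors gave medians from 0.67 (without early tumor 1) to 1.21 (without late tumor 2). The part of the slide in these values was not tested beyond that, as early tumor 1 and early tumor 3 had no late LFD-HFD tumor on their slide.

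The other regimens had smaller or opposite medians for this list. The median difference of early from late tumors was 0.27 in LFD, -0.55 in HFD and -0.03 in HFD-LFD mice, and -0.11 for the mean of the 3 regimens. In LFD mice, and likewise in HFD-LFD mice, the early tumors lay on another slide than the late ones. Onset and slide cannot be told apart in those regimens, here and for every list below. The HFD values rest on doubtful labels, since the authors' matrix columns of all 4 early and 1 of the 4 late HFD tumors did not match their own scanner files best. Without the HFD tumors, an alternative chosen after seeing the data, the mean of the other 2 regimens was 0.07. The difference between the onset effect in LFD-HFD mice and that mean was above 0 for 23 of the 24 genes, with a median of 1.03, and it passed the test for 0 of them. Without the HFD tumors it was above 0 for 21, with a median of 0.88. Fn1, for example, had a difference of 0.37 in the mean of the other regimens, and Col1a1 one of -0.10. The late LFD-HFD tumors had list means of -1.85 to -1.50, within the range of -2.25 to -0.89 of the 4 late LFD tumors.

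**Figure D2:**
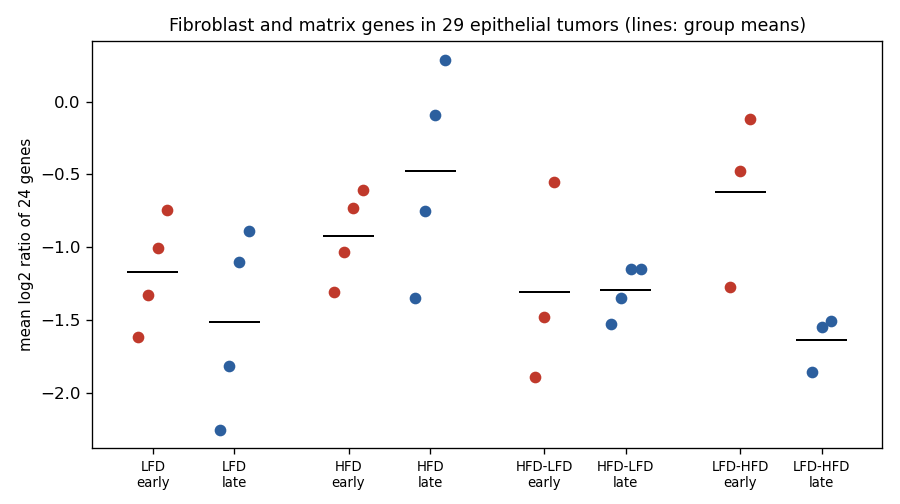
Mean log2 ratio of the 24 fibroblast and matrix genes (y axis) in each of the 29 epithelial tumors by diet regimen and onset (x axis), with a point per tumor and a line at the group mean. Early LFD-HFD tumors, at -1.27 to -0.12, lie above the late ones, at -1.85 to -1.50, and the early and late tumors of each other regimen overlap.

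Macrophage genes showed differences in both directions. Of 22 measured genes, 14 were higher in early tumors, the median difference was 0.30, and the groups were separate for 8, all higher in early tumors, beside 5.88% of all genes. These 8 were Ccr2 and Fcgr1, a chemokine and an antibody receptor of monocytes, Csf1r, the receptor for the macrophage growth factor, the complement genes C1qa, C1qb and C1qc, Adgre1, which encodes F4/80, and Aif1. Ccr2 had ratios of 4.41, 4.56 and 4.70 in early and 3.10, 2.64 and 3.86 in late tumors, a difference of 1.35 ± 0.56. Fcgr1 had ratios of 3.27, 3.21 and 3.22 in early and 1.98, 2.20 and 1.52 in late tumors, a difference of 1.33 ± 0.55. The early tumors were nearly equal for both and the late tumors spread over more than 0.6. Differences of the other 6 were smaller, from 0.39 for Aif1 to 0.69 for Csf1r. Adgre1 had ratios of 1.14, 0.85 and 1.06 in early and 0.21, 0.75 and 0.70 in late tumors, a difference of 0.47 ± 0.51. Arg1, the arginase used as a mark of alternative activation, had ratios of -3.67, -2.57 and -2.77 in early and -1.51, -2.81 and -2.16 in late tumors, a difference of -0.84 ± 0.87, and Retnla, of the same state, differed by -2.13 ± 1.04. Lyz2, Mrc1 and Cd68 differed by -0.01, 0.00 and 0.22. Msr1, a scavenger receptor, had the highest difference of the list at 1.47 ± 0.68, with overlapping groups. The median was 0.14 without early tumor 2 and 0.13 without late tumor 3, and the list means of early tumors, at 0.35 to 0.52, overlapped those of late tumors, at 0.01 to 0.43. Within the shared slide the median was 0.33. The median was 0.30 in LFD, -0.37 in HFD and 0.11 in HFD-LFD mice, so that the 0.00 for their mean joins opposite signs, and it was 0.24 without the HFD tumors.

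Genes of antigen presentation to helper T cells were also higher in early tumors. For MHC class II, 8 of 9 genes were higher with a median difference of 0.71, and 4 of 8 with all values had separate groups, all higher in early tumors, beside 5.88% of all genes. H2-Aa, a chain of the presenting molecule, had ratios of 2.14, 1.83 and 2.32 in early and 1.65, 0.46 and 1.32 in late tumors, a difference of 0.95. H2-DMb1, which helps to load the molecule, Cd74, its invariant chain, and Ctss, which processes that chain, differed by 0.85, 0.80 and 0.67. The SE of each of these differences was 0.57 or more, so the differences were of the size of their errors. The list's median was 0.42 without late tumor 2, and 0.50 within the shared slide. Ciita, the master regulator of these genes, differed by -0.42 ± 0.67 with its value in late tumor 2 missing. All 14 MHC class I and antigen processing genes lay above 0, with a median of 0.40 and separate groups for 1 of 13, beside 5.88% of all genes. Its median was 0.20 without late tumor 3, 0.69 without late tumor 2 and 0.79 within the shared slide.

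The median of the antiviral interferon-induced genes moved with single tumors. Of 34 antiviral genes, such as those for the enzymes and sensors that detect or destroy viral RNA, 32 were higher in early tumors with a median difference of 0.47, but only 1, Ifitm3, had separate groups, beside 5.88% of all genes. The list's means were 2.46, 3.40 and 2.43 in early and 2.91, 2.69 and 1.27 in late tumors, so that early tumor 2 was the highest and late tumor 3 the lowest, and the other 4 tumors lay between 2.43 and 2.91 in no order of onset. Without late tumor 3 the median was -0.12, with 12 of 34 genes above 0, and without early tumor 2 it was 0.10. Within the shared slide, where early tumor 2 stands for the early tumors, it was 1.05 with 34 of 34 genes above 0. Ifit1, the most often used marker of this response, had ratios of 3.76, 5.02 and 4.05 in early and 4.22, 3.97 and 2.22 in late tumors, a difference of 0.81 ± 0.85, against 2.04 ± 0.44 in the mean of the other regimens. Genes induced by interferon-gamma, among them the GTPases of the Irg and Gbp families, had a median difference of 0.51 with 17 of 20 above 0. Groups were separate for 3 of 19 (Tgtp1, Iigp1 and Gbp6), all higher in early tumors, beside 5.88% of all genes. The means of the interferon-gamma list were 2.51, 2.93 and 2.54 in early and 2.32, 2.47 and 1.69 in late tumors, so that the groups were apart by less than their own ranges. The interferon-gamma median was 0.35 to 0.64 with any 1 tumor left out and 0.83 within the shared slide. The median in the other regimens was 0.77 for the antiviral and 1.01 for the interferon-gamma list.

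A list of 24 genes that the study itself tied to immune disorders had a median difference of 0.91, with 24 of 24 genes above 0. Groups were separate for 8, all higher in early tumors, beside 5.88% of all genes. That list was chosen on tumors that include these 6, so it is not independent evidence of direction or of separation. Tnfsf10, which encodes the death ligand TRAIL, had ratios of 3.98, 3.22 and 3.94 in early and 2.50, 2.31 and 1.92 in late tumors, a difference of 1.47 ± 0.98. The early and late values of Tnfsf10 were separate. Herc6, an interferon-induced ligase, had ratios of 3.20, 6.03 and 3.98 in early and 3.27, 2.66 and 2.93 in late tumors, with early tumor 2 highest and overlapping groups, and its probes disagreed, with differences of -0.27 and 1.45. The list's median was 1.22 within the shared slide and 1.29 in the mean of the other regimens.

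**Figure D3:**
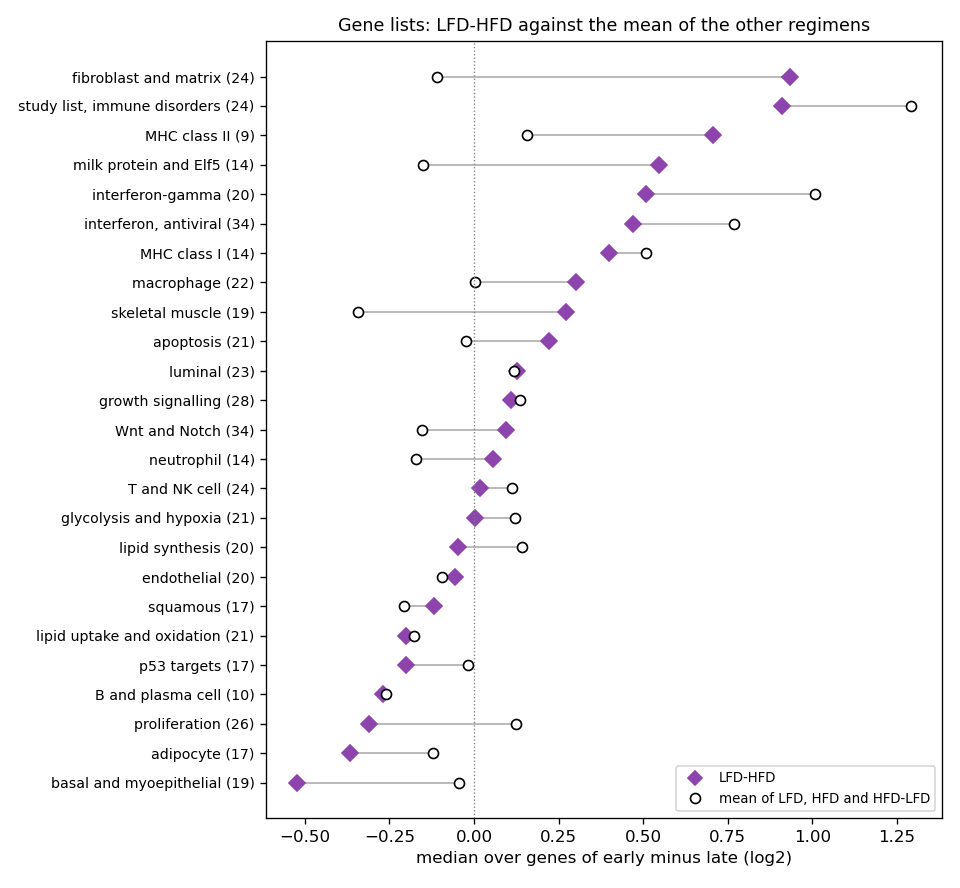
Median over genes of the early minus late difference (x axis, log2) for each of 25 gene lists (y axis, number of measured genes in parentheses), in LFD-HFD epithelial tumors (diamonds) and for the mean of the other 3 regimens (open circles). The diamonds run from -0.52 for basal and myoepithelial genes to 0.93 for fibroblast and matrix genes, and the widest gap between diamond and circle is that of the fibroblast and matrix list.

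The largest single differences, among genes with separate groups and signal well above background on all 6 arrays, were spread over unrelated functions. These are the ends of a ranking over all genes and were named for their size. Gzmc, a granzyme of cytotoxic lymphocytes, had ratios of 6.22, 6.09 and 4.46 in early and 1.39, 2.49 and 0.57 in late tumors, a difference of 4.11 ± 1.07 or 17.2-fold. It lies in a cluster of near-identical granzyme genes, so its probe may not be specific to it. Of the other granzymes, Gzmb differed by 1.30 ± 0.91 and Gzma by 0.54 ± 0.78, both with overlapping groups. Stra6, the membrane receptor that takes up retinol, had ratios of 2.95, 4.22 and 3.39 in early and -0.77, 1.11 and -0.52 in late tumors, a difference of 3.58 ± 1.06. In the mean of the other regimens Stra6 differed by -0.18. Csmd1, a large membrane protein that restrains complement, differed by 3.58 ± 1.53, with ratios of 2.67, 4.45 and 4.47 in early and 1.85, -0.30 and -0.70 in late tumors. Prl2c5, a proliferin whose family members are near-identical in sequence, differed by 3.16 ± 1.54, and late tumor 2 at 3.53 came close to early tumor 3 at 3.94.

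Of the other genes at this end, several act outside the cell. Lrrc15, a membrane protein known from fibroblasts activated by TGF-beta, had ratios of 2.50, 1.28 and 1.70 in early and -1.56, 0.56 and -1.51 in late tumors, a difference of 2.66 ± 0.82, against 0.08 in the mean of the other regimens. Mmp9, the gelatinase made by neutrophils and other cells, had ratios of -0.52, -1.67 and -1.76 in early and -4.41, -1.95 and -4.99 in late tumors, a difference of 2.47 ± 1.16. For Mmp9 the gap between early tumor 3 and late tumor 2 was narrow, and late tumor 2 was the late tumor nearest to the early ones for most of these genes. Col4a6, a basement membrane collagen, differed by 2.42 ± 1.25, but its other probe differed by 0.07. Syt13, Togaram2, Rpl39l and Clca3a2 differed by 2.66, 2.52, 2.51 and 2.42.

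**Figure D4:**
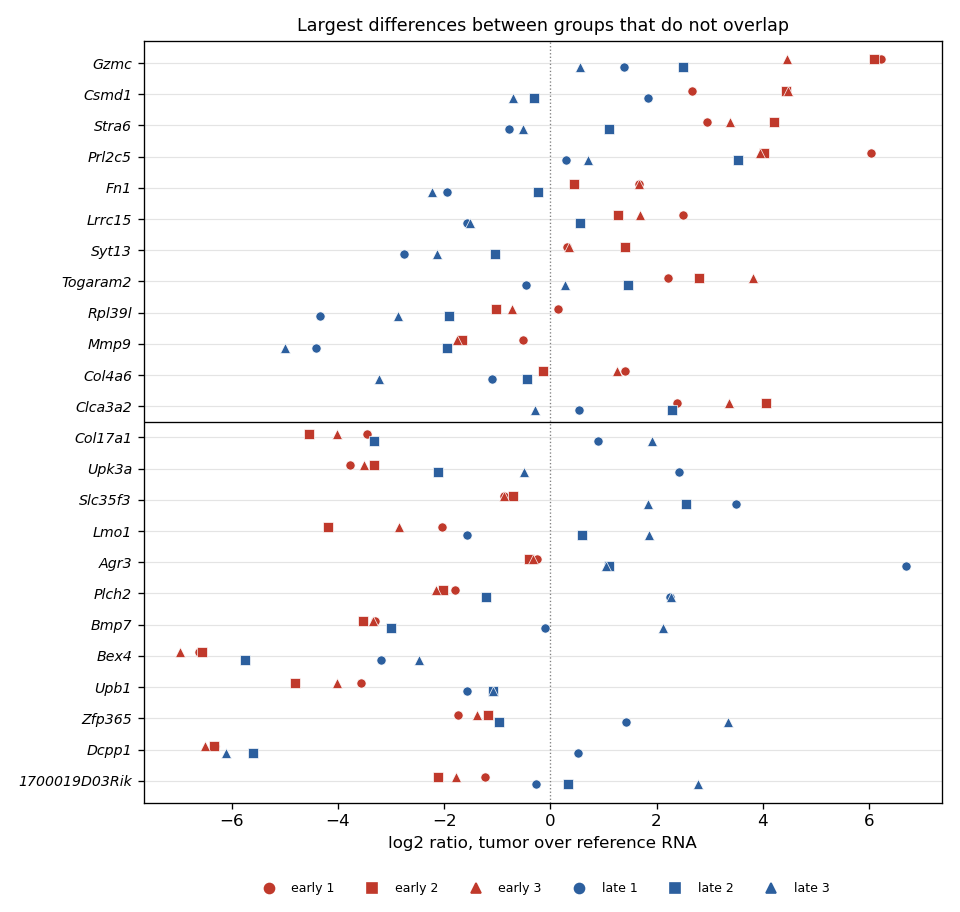
Log2 ratios (tumor over reference RNA, x axis) of the 12 genes with the largest positive (above the line) and the 12 with the largest negative (below the line) early minus late difference among genes whose groups do not overlap, in 3 early (red) and 3 late (blue) LFD-HFD epithelial tumors. Early tumors lie close together for most genes below the line, while late tumors spread widely, and late tumor 2 (blue square) is often the late tumor nearest to the early ones.

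At the other end of the ranking, late tumors were high and unlike each other. Col17a1, a collagen of the hemidesmosomes that anchor basal cells, had ratios of -3.45, -4.54 and -4.02 in early and 0.90, -3.33 and 1.91 in late tumors, a difference of -3.83 ± 1.95. Bmp7, a secreted growth factor, had ratios of -3.30, -3.53 and -3.34 in early and -0.10, -3.01 and 2.12 in late tumors, a difference of -3.06 ± 1.40. For both, late tumor 1 and late tumor 3 were far above all early tumors and late tumor 2 lay beside them. Agr3, a disulfide isomerase of secretory epithelium, was set by a single tumor, with ratios of -0.24, -0.41 and -0.33 in early and 6.69, 1.11 and 1.04 in late tumors, a difference of -3.27 ± 1.35. Dcpp1, of a family of near-identical secreted proteins, was likewise at 0.53 in late tumor 1 and between -6.50 and -5.59 in the other 5. Upb1, an enzyme of pyrimidine breakdown, behaved more evenly, with ratios of -3.57, -4.81 and -4.02 in early and -1.58, -1.09 and -1.07 in late tumors, a difference of -2.89 ± 0.75 or 7.39-fold. Upk3a, Slc35f3, Lmo1, Plch2, Bex4, Zfp365 and 1700019D03Rik differed by -3.47 to -2.65.

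Basal and myoepithelial genes had the lowest median of the 25 lists. Of 19 measured genes, 14 were lower in early tumors, with a median difference of -0.52, and 3 of the 17 with all values (Krt5, Myh11 and Id4) had separate groups, lower in early tumors, beside 4.27% of all genes. The list means were -0.56, -0.72 and -0.48 in early and 0.66, -0.65 and 0.46 in late tumors. Late tumor 2 thus lay among the early tumors, and late tumor 1 and late tumor 3 above them. Krt5, the basal keratin, had ratios of -2.86, -2.47 and -2.64 in early and -0.27, -2.06 and -0.31 in late tumors, a difference of -1.77 ± 1.13. Krt14, its partner, had ratios of -1.01, -0.24 and -0.41 in early and 1.24, 0.05 and -1.38 in late tumors, a difference of -0.52 ± 1.11. The contractile genes Cnn1, Mylk and Acta2 differed by -1.75, -1.15 and -0.97 with overlapping groups. Trp63, the transcription factor of basal cells, differed by -0.26 ± 0.23 at the probe used, though another of its probes differed by -3.32, and Sox10 by 0.02 ± 0.78. The median was -0.25 without late tumor 1 and -0.83 without late tumor 2, and -0.77 within the shared slide. It was -0.28 in LFD, -0.96 in HFD and 0.53 in HFD-LFD mice, so that the -0.04 for their mean joins opposite signs. Without the HFD tumors, whose labels are doubtful, that mean was 0.11.

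Luminal genes showed no common direction, with 12 of 23 higher in early tumors and a median of 0.13, or 0.20 within the shared slide. Gata3, a factor of luminal fate, was separate at 1.63, 1.30 and 1.39 in early and 1.05, 1.13 and 0.52 in late tumors, a difference of 0.54 ± 0.70. Prlr, the prolactin receptor, was separate in the other direction, at 3.14, 1.78 and 3.14 in early and 4.25, 3.32 and 3.76 in late tumors, a difference of -1.09. These were 1 higher and 1 lower of 23 luminal genes, beside 5.88% and 4.27% of all genes. Esr1, the estrogen receptor, had ratios of 0.41, -2.60 and 1.12 in early and 0.93, 0.30 and 1.84 in late tumors, with overlapping groups and probes that differed by -1.38 and 0.12. Milk protein genes and Elf5, which marks the alveolar lineage, had a median of 0.55 with 9 of 14 above 0 and separate groups for 0 of 14. Within the shared slide the median was -0.11, with 6 of 14 above 0. That median was 0.15 without late tumor 2, 0.25 without late tumor 3, 0.28 without early tumor 1 and 0.98 without late tumor 1, and the luminal median was 0.44 without late tumor 1 and -0.06 without late tumor 3. Squamous genes, of keratinizing cells, had a median of -0.12, with 13 of 17 lower in early tumors. Groups were separate for 1 of 17, lower in early tumors, beside 4.27% of all genes. The squamous median was -0.04 within the shared slide.

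**Figure D5:**
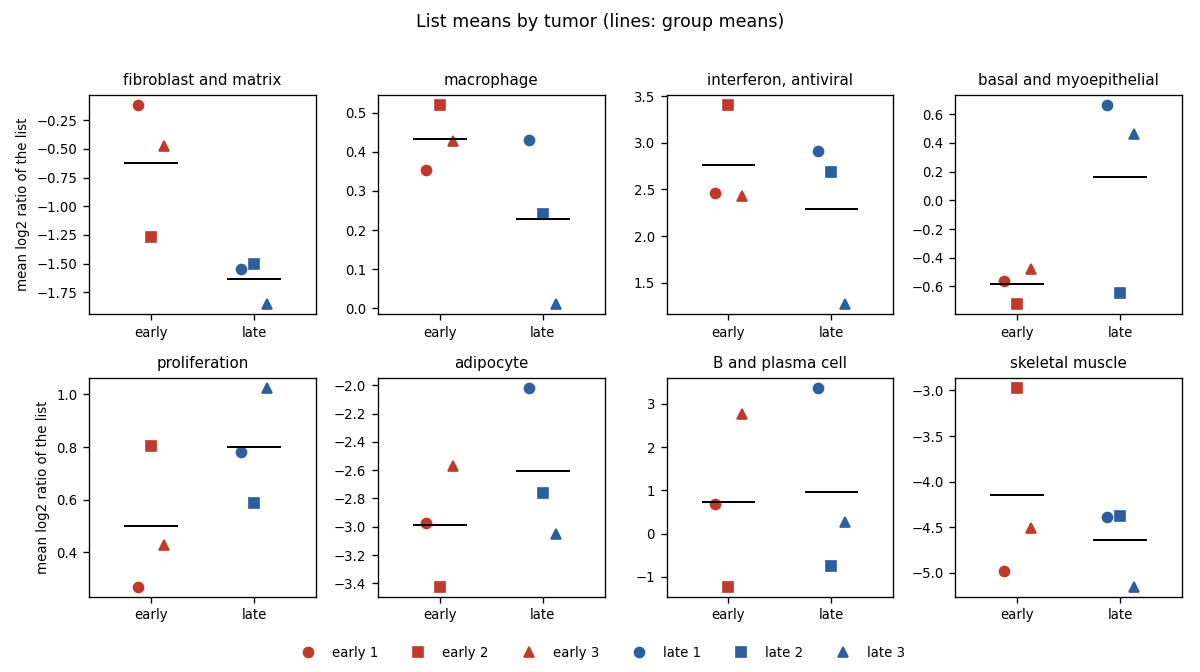
Mean log2 ratio of the genes of 8 lists (y axes, scaled separately) in each early (red) and late (blue) LFD-HFD epithelial tumor, with a line at the group mean of 3. Of these 8 lists the groups are apart for fibroblast and matrix genes only, late tumor 2 sits among the early tumors for basal genes, and early tumor 2 stands highest for skeletal muscle genes.

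Cell division genes were slightly lower in early tumors. Of 26 measured genes, 22 had a lower mean in early than in late tumors, and the median difference was -0.31. Separate groups were seen for 2 of 26, both lower in early tumors, beside 4.27% of all genes. Ccna2, which encodes cyclin A2, had ratios of 0.15, 0.20 and 0.14 in early and 0.82, 0.56 and 1.72 in late tumors, a difference of -0.87 ± 0.34. Birc5, which encodes survivin, had ratios of -0.02, 0.12 and 0.30 in early and 1.26, 0.62 and 0.34 in late tumors, a difference of -0.61 ± 0.42. The 3 early values of Ccna2 were nearly equal, and the late value nearest to them was that of late tumor 2. Mki67 differed by -0.32 ± 0.34 and Pcna, whose protein marks S phase, by -0.12 ± 0.29. Within the shared slide, 15 of the 26 genes were higher in early tumor 2 than in the mean of the late tumors, with a median of 0.04, so that the direction was not that of all 6 tumors. The median was -0.20 without early tumor 1 or late tumor 3. The other regimens had a median of 0.12.

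Targets of p53 and genes of cell death had medians of opposite sign. Of 17 p53 targets, 12 were lower in early tumors with a median of -0.20, which was 0.01 without late tumor 3 and -0.34 without late tumor 2, and -0.29 within the shared slide. Cdkn1a, the cell cycle inhibitor, differed by 0.24 ± 0.59, with probes from -0.72 to 0.40, and Mdm2, which marks p53 for degradation, by -0.02 ± 0.24. Perp, also a gene of desmosomes, had ratios of -2.79, -2.42 and -1.70 in early and -0.75, -1.28 and 1.53 in late tumors, a difference of -2.13 ± 0.92. Plk2 was separate as well, with a difference of -0.92 ± 0.79. The groups were thus separate for 2 of 17 p53 targets, both lower in early tumors, beside 4.27% of all genes. Apoptosis genes had a median of 0.22, with 14 of 21 above 0. Their groups were separate for 3 of 20, all higher in early tumors, beside 5.88% of all genes. Among these, Bmf, a killer of the Bcl2 family, had ratios of 1.25, 1.78 and 1.72 in early and 0.35, 0.76 and -0.61 in late tumors, a difference of 1.42 ± 0.58, while Bak1 and Casp8 differed by 0.44 and 0.42. The apoptosis median was 0.43 without late tumor 2 and 0.05 without late tumor 3, and 0.09 within the shared slide.

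Genes of fatty acid uptake and oxidation were mostly lower in early tumors. Of 21 such genes, 14 were lower in early tumors, with a median of -0.20, and 5 had separate groups, all lower in early tumors, beside 4.27% of all genes. Their mean ratio was -1.97, -2.45 and -2.17 in early and -1.75, -1.69 and -1.93 in late tumors, so that the groups were narrowly apart. Ppara, the nuclear receptor that drives fatty acid oxidation, had ratios of -4.18, -4.33 and -4.22 in early and -3.16, -3.59 and -2.46 in late tumors, a difference of -1.17 ± 0.37. Its 3 probes differed by -2.23 to -0.10. Cd36, a fatty acid transporter of adipocytes, vessels and macrophages, had ratios of -3.82, -6.11 and -4.17 in early and -2.12, -3.66 and -2.58 in late tumors, a difference of -1.91 ± 0.97. Fabp5, a fatty acid binding protein, had ratios of -1.95, -2.57 and -1.50 in early and -1.22, -0.04 and 0.04 in late tumors, a difference of -1.60 ± 0.88. For both, early tumor 2 was the lowest tumor. The other genes with separate groups were Cpt1b, which admits fatty acids to mitochondria of muscle, at -0.58 ± 0.32, and Acot2, which was not well above background in any early tumor. Cpt1a, the form of most tissues, differed by -0.28 ± 0.34 and Acadl by 0.73 ± 0.49, with overlapping groups. The median was -0.10 without early tumor 3, -0.13 without late tumor 1 and -0.31 without late tumor 3, -0.39 within the shared slide and -0.18 in the other regimens.

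Adipocyte genes moved with some of these values. Of 17 measured genes, 13 were lower in early tumors, with a median of -0.37 and separate groups for 0, and Adipoq and Fabp4, which define adipocytes, differed by -0.60 ± 0.87 and -0.55 ± 0.88. The list means ranged from -3.42 to -2.57 in early and from -3.05 to -2.02 in late tumors, and the list's median was -0.04 without late tumor 1, -0.05 without early tumor 2, -0.61 without early tumor 3 and -0.67 without late tumor 3, and -0.97 within the shared slide. The part of adipocytes in the values of Cd36 and the other fat genes was not tested. Genes of lipid synthesis had a median of -0.05, with 8 of 20 above 0, and of -0.03 within the shared slide. Insig1, which restrains the sterol regulator, had ratios of -3.50, -3.18 and -2.31 in early and -1.56, -0.90 and -2.14 in late tumors, a difference of -1.46 ± 0.50. Of the 20 lipid synthesis genes, groups were separate for 1 higher and 1 lower in early tumors, the lower being Insig1. All genes had shares of 5.88% and 4.27%. Glycolysis and hypoxia genes had a median of 0.00, which was 0.34 without late tumor 2, -0.33 without late tumor 3 and -0.07 within the shared slide. Of these, Bnip3, of mitophagy, and Vegfa, the vessel growth factor, were separate at -1.15 ± 0.73 and -0.47 ± 0.51, lower in early tumors. They were 2 of 20 genes with all values, beside 4.27% of all genes.

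Growth factor genes had a median of 0.11, with 17 of 28 higher in early tumors. Of the 28, 4 had separate groups with early tumors higher and 2 with early tumors lower, beside 5.88% and 4.27% of all genes. The median was 0.32 without late tumor 1, 0.0014 without early tumor 3 and -0.05 within the shared slide. Hbegf, a ligand of the EGF receptor, had ratios of 1.53, 1.87 and 1.21 in early and -0.53, 1.12 and -2.06 in late tumors, a difference of 2.03 ± 0.76. Another ligand of that receptor, Btc, was separate in the other direction but not well above background in any early tumor. Met, the receptor of hepatocyte growth factor, had ratios of 5.02, 5.72 and 6.03 in early and 1.68, 5.48 and 1.37 in late tumors, so that late tumor 2 lay among the early tumors and the difference of 2.74 ± 1.38 came from late tumor 1 and late tumor 3. Axl, a receptor kinase of mesenchymal cells, differed by 0.75 ± 0.43. Fgf7, made by fibroblasts, was at 3.43 in late tumor 1 and between -1.90 and -1.34 in the other 5 tumors. Among 34 Wnt and Notch genes the median was 0.09, or -0.19 within the shared slide, with separate groups for Wnt10a at 1.87 ± 1.35 and Sfrp1, a secreted Wnt antagonist, at -1.95 ± 1.16. These were 1 higher and 1 lower of 33 genes with all values, beside the same shares of all genes.

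Lists of the other cell types showed no common order by onset. T and NK cell genes had a median of 0.02 and B and plasma cell genes one of -0.27, with separate groups for 0 of 24 and 0 of 10. The list means of B and plasma cells were 0.68, -1.23 and 2.77 in early and 3.37, -0.75 and 0.27 in late tumors, so that early tumor 3 and late tumor 1 stood above the rest. Without late tumor 1 the medians were 0.65 for T and NK and 1.02 for B and plasma cell genes, and without late tumor 2 they were -0.33 and -0.99. Within the shared slide they were -0.68 and -2.23. Endothelial genes had a median of -0.06, or 0.27 without early tumor 2 and -0.46 within the shared slide. Of these, Pecam1, which encodes CD31, had ratios of -0.87, -0.97 and -1.11 in early and -0.66, -0.84 and -0.68 in late tumors, a difference of -0.26 ± 0.39. Neutrophil genes had a median of 0.06, in which Mmp9 was the only gene of 14 with separate groups, beside 5.88% of all genes higher in early tumors. That median was 0.61 without late tumor 2, -0.36 without late tumor 3 and -0.35 within the shared slide. Skeletal muscle genes were highest in early tumor 2, with a list mean of -2.97 against -5.15 to -4.37 in the other 5 tumors, and Myh4, a fast myosin, was at 2.81 in early tumor 2 and between -4.71 and -1.85 elsewhere. Without early tumor 2 the muscle median of 0.27 was -0.10, and within the shared slide it was 1.14. The part of muscle in the other values of early tumor 2 was not tested. Cd200 and Vsir, inhibitors of immune cells, differed by 0.23 ± 0.81 and 0.24 ± 0.38 with overlapping groups.

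The difference of the onset effect between LFD-HFD and the mean of the other regimens was tested for every gene. None passed, with 0 of 21407 called higher (0%) and 0 lower (0%), a smallest adjusted p of 0.661 and 531 genes (2.48%) at an unadjusted p under 0.05. Onset in the mean of the other 3 regimens, which rests on 23 tumors, gave 5 genes called higher (0.0234%) and 10 lower (0.0467%), with an unadjusted p under 0.05 for 12.8%. The numbers of tumors behind these comparisons differ, so the counts are not set against each other. In LFD and HFD-LFD mice onset cannot be told apart from slide, so the counts that use them are not those of onset alone.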

How the data were processed

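The authors scanned 2-color Agilent arrays and deposited, for each array, spot intensity and background in both channels, processed intensities (background subtracted, spatially detrended and dye-normalized by Feature Extraction 11.0.1.1 per the file headers, 8.5.1.1 per the labels), a log10 ratio, and a series matrix of log2 ratios. The deposited log10 ratio was not used. Labels give Cy5 for the tumor and the study's methods Cy5 for the reference. The 5 probes of Y-linked genes, absent from females, had median log2 ratios (Cy5 over Cy3) of -2.09 to -0.14 on the 6 arrays, so ratios were taken as Cy5 over Cy3. Here log2 ratios of processed intensities were used. Probes with a signal above 10 in both channels on 80% of the 29 epithelial arrays were kept (27938 of 39429), outlier spots were left missing (1.63% of gene values), and the brightest probe stood for each of 21407 genes. Names came from RefSeq (GRCm38.p6, 17259 matched), and probe positions (mm9) from the files. limma 3.58.1 in R 4.3.3 fitted 8 groups of regimen and onset, with 21 residual degrees of freedom and Benjamini-Hochberg adjustment, in place of the SAM of the study's methods. In data simulated for this comparison over 21407 genes, 68.5% of 200 genes changed by a log2 difference of 2 were recovered with 11.0% false calls. The simulated noise was independent between genes, had the same spread in every group and held no slide shift. These shares therefore need not hold for the real arrays. Where values are absent for a tumor the fit used the others. Genes named were those with the largest differences among non-overlapping groups with signal well above background, list members called or at the ends of their list, and genes the study names. Some genes are not reported here. Members and lists were chosen with earlier results of these data known. Where nothing says that tumors came from separate experiments, p-values measure the spread between these tumors. Alternatives changed normalization, filter, probes, samples, slide and threshold, or used the authors' matrix, whose columns matched the 6 arrays at an r of 0.982 to 0.994.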

Additional observations from a re-analysis of the deposited data

How the results depend on the processing

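Of 21 alternatives to the fit, 18 called no gene between early and late LFD-HFD tumors. With normexp background correction and loess 1 gene was called higher (Igfbp7), and without a filter on signal 1 was called lower (Esx1). Leaving out each of the 6 tumors in turn gave 0 to 3 genes called higher, the 3 without late tumor 2 being Col8a1, Gpr176 and 4833422C13Rik, and 0 lower. For the difference of the onset effect between regimens, leaving out 3 HFD tumors whose matrix columns matched another HFD scanner file gave 1 gene called lower (Ccdc109a, now Mcu), and all other alternatives 0, also under the matrix's labels for these tumors and, in an alternative chosen after seeing the data, without all HFD tumors. Another 2 early HFD tumors matched no scanner file closely. These 6 genes are named after their values were seen. The causes were not tested.

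Medians of 25 gene lists were recomputed under the same alternatives. With slide as a fixed block, where the comparison rests on early tumor 2 against the 3 late tumors, the median was 0.29 for fibroblast and matrix, 0.79 for MHC class I, 0.0351 for proliferation, -0.46 for endothelial, -0.97 for adipocyte, 1.14 for skeletal muscle and -0.19 for Wnt and Notch genes. With slide as a random block the correlation within slides was 0.03. Each LFD and HFD-LFD group filled a slide of its own, so that value cannot measure shifts between those slides. Leaving out each tumor in turn gave medians of 0.134 to 0.399 for macrophage (0.138 without early tumor 2), 0.0501 to 0.431 for apoptosis, -0.0559 to 0.440 for luminal and -0.406 to -0.00454 for squamous genes. The median of all genes stayed between -0.04 and 0.02. No paired analysis was possible because the labels give no replicate numbers that join early and late tumors. With 3 tumors a group, the spread among the late tumors and the slide limit what can be seen, and dim probes give only bounds.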
